A study of Mus musculus with 22 samples.

Results

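The 10 cadherin genes Cdh4, Cdh6, Cdh7, Cdh8, Cdh9, Cdh10, Cdh11, Cdh12, Cdh13 and Cdh18, of 21718 protein-coding genes with a usable 100 kb bin, were followed through 3 regions of the mouse brain. They were picked by family name with the levels of these same libraries known, so their differences between tissues are described and not tested as a set. Calls given for their bins come from a test over all bins and are counted as a description. Each gene was taken at its GENCODE vM21 span in mm10 (GRCm38), with every bin that overlapped it and the 500 kb to each side. This gave 56 of 26327 bins of 100 kb for 5-methylcytosine (5mC) and 15 of 2641 bins of 1 Mb for 5-hydroxymethylcytosine (5hmC). All of these bins passed the filter on listed values of 0 or 1, and no bin belonged to more than 1 member.

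The tissues were the cortex (the cerebral cortex without the hippocampus), the whole olfactory bulb and the whole cerebellum of female C57BL/6 mice at 8 weeks of age, with no transgene or treatment given in the labels. 5mC was read by oxBS-seq, in which 5hmC is oxidized before bisulfite conversion so that only 5mC stays protected, in 3 cortex libraries, 2 olfactory bulb libraries and 2 cerebellum libraries. 5hmC was read by TAB-seq, in which 5hmC is shielded and 5mC is oxidized away, in 3 libraries of each tissue. The paper's methods call the replicates technical and say that independent mice were used, while its results call them biological. A level is the fraction, from 0 to 1, deposited for a bin. The paper computes levels at CpG sites, as the share of reads that show C there. Each level averages over all cell types of the tissue. A change within cells and a change in the mixture of cells therefore cannot be told apart. The tables hold no read counts, so the depth behind a bin's level could not be given and the SD between libraries is the only error given.

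Across the genome the libraries of a tissue were alike, with Pearson's r across 5mC bins of 0.947 to 0.982 within tissues and 0.801 to 0.918 between them, and across 5hmC bins of 0.994 to 0.998 against 0.783 to 0.944. Median 5mC was 0.679 to 0.706 over the cortex libraries, 0.728 to 0.730 over those of olfactory bulb, and 0.745 to 0.761 over those of cerebellum. Median 5hmC was 0.165 to 0.186, 0.149 to 0.157 and 0.0918 to 0.0954, respectively. The 6 RNA-seq libraries were not analysed here, so the tissues could not be checked against marker genes.

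Cadherins are calcium-dependent adhesion molecules that join neighbouring cells, and in the brain different members mark different nuclei, layers and groups of neurons. Classical cadherins carry extracellular cadherin repeats, a membrane-spanning stretch and a cytoplasmic tail that binds catenins, through which the tail is linked to actin. Cdh4 (R-cadherin) is a type I member, Cdh6, Cdh7, Cdh8, Cdh9, Cdh10, Cdh11, Cdh12 and Cdh18 are type II members, and Cdh13 (T-cadherin) has no cytoplasmic tail and is held to the membrane by a lipid anchor. In CpG-rich promoters 5mC is commonly low, while gene bodies are commonly methylated, and 5hmC is made from 5mC by the TET enzymes and is plentiful in neurons.

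The genes lay in CpG-poor DNA apart from Cdh4, Cdh6 and Cdh13. Their 56 bins held a median of 5.71 CpG sites per kb (range 3.77 to 15.5) against 7.53 over the 25664 bins kept genome-wide. Cdh4, Cdh6 and Cdh13 held 12.1, 10.7 and 11.4 CpG sites per kb, and the other members 4.36 (Cdh7) to 7.12 (Cdh11). Within the gene and 500 kb to each side, Cdh7, Cdh8, Cdh9, Cdh10, Cdh11 and Cdh18 had no other protein-coding gene. Cdh12 had Acot10, which lay inside its span and covered 0% of its flanks. Cdh6, Cdh4 and Cdh13 had 3, 13 and 16.

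The RefSeq promoters (GRCm38.p6) of 7 members were found, namely Cdh6, Cdh7, Cdh8, Cdh9, Cdh10, Cdh12 and Cdh18. The 250 bases before the start site are shown for 3 type II genes to set the range of CpG content at starts whose 100 kb bins are described in the next paragraphs, with CpG sites in capitals and each read 5′ to 3′ on the strand of the gene. The first is Cdh8 at chr8:99416472-99416721 on the minus strand, upstream of the start of transcript Cdh8-203 and outside the gene's GENCODE span. The second is Cdh10 at chr15:18820079-18820328 on the plus strand, in an intron of longer Cdh10 transcripts and upstream of Cdh10-201. The third is Cdh18 at chr15:23036213-23036462 on the plus strand, in an intron of Cdh18-202 apart from its last bases, which fall in an exon of the retained-intron transcript Cdh18-206, and upstream of Cdh18-203.
Cdh8: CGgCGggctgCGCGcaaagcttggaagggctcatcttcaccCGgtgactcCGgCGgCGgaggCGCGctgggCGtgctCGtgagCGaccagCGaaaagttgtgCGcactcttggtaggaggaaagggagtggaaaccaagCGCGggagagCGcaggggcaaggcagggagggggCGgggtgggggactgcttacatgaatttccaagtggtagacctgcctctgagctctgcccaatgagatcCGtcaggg
Cdh10: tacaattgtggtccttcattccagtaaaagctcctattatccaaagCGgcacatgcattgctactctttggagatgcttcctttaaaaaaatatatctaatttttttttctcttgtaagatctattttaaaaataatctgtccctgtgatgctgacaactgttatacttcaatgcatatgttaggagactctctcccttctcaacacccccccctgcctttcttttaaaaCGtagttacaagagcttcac
Cdh18: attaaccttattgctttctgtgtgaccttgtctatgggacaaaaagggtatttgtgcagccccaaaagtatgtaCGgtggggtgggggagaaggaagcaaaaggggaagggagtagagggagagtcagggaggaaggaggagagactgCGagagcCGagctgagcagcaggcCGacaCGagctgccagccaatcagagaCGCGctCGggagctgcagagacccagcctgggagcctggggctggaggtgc
The motif counted was CG, which reads the same on both strands. The Cdh8 sequence held 20 CpG sites, a number reached by 17.9% of the 32851 RefSeq promoters of this length. The Cdh18 sequence held 8, reached by 43.0%, and the Cdh10 sequence held 2, reached by 81.2%. The median over all promoters was 6, and 92.1% had at least 1. A level of a 100 kb bin averages many more sites than these, so the methylation of the printed bases themselves was not measured here.

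In 7 of the 10 genes 5mC was lowest in cortex and highest in cerebellum (Cdh6, Cdh9, Cdh10, Cdh11, Cdh12, Cdh13 and Cdh18). Cdh7 and Cdh8 had their highest level in olfactory bulb, and Cdh4 had its lowest there. The levels of the 3 tissues did not overlap between libraries in any of the 10 genes. Over genes of at least 100 kb such separation was common: olfactory bulb was higher than cortex without overlap in 66.2% of 2488 genes and lower in 6.31%, cerebellum was higher than cortex in 82.5% and lower in 4.94%, and cerebellum was higher than olfactory bulb in 69.9% and lower in 13.4%. The median difference over the members was 0.0534 for olfactory bulb minus cortex, 0.0968 for cerebellum minus cortex and 0.0452 for cerebellum minus olfactory bulb. Over all genes of at least 100 kb these medians were 0.0304, 0.0670 and 0.0333.

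**Figure D1:**
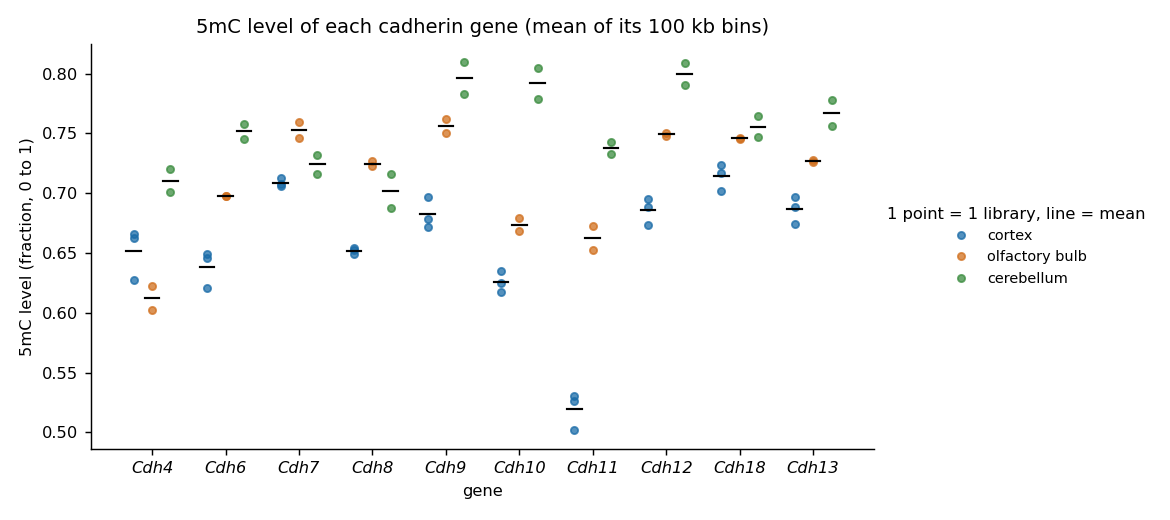
5mC level (fraction) of each cadherin gene, as the mean of its 100 kb bins, with 1 point per library (3 cortex, 2 olfactory bulb, 2 cerebellum) and a line at the mean of the tissue. The cortex libraries of Cdh11 lie between 0.502 and 0.530, and Cdh4 is the only gene whose olfactory bulb libraries lie below its cortex libraries. With each library centred on its genome median the order of Cdh7, Cdh8 and Cdh18 changes.

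Much of this ordering is shared with the whole genome. The median 100 kb bin was higher by 0.0307 in the olfactory bulb and by 0.0585 in cerebellum than in cortex, and by 0.0248 in cerebellum than in olfactory bulb. On the log2(level/(1 − level)) scale these shifts were 0.22, 0.43 and 0.19. Each difference is therefore also given after the genome median of its library was subtracted, called the centred difference. After centring, 8 of the 10 members were higher in olfactory bulb than in cortex, 7 were higher in cerebellum than in cortex, and 7 were higher in cerebellum than in olfactory bulb. The libraries of the tissues then overlapped in 3, 2 and 0 members. Shares over the long genes after centring are not given here, so these counts describe the members only.

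The limma test over all 100 kb bins (Benjamini-Hochberg adjusted p under 0.05), counted over member bins as a description, called 36 of 56 bins higher and 3 lower in olfactory bulb than in cortex. Over the genome it called 37.6% of bins higher and 2.18% lower. All 3 lower bins were in Cdh4, and none of them was called without olfactory bulb replicate 2, when 20 member bins were called higher and 0 lower. For cerebellum against cortex 46 bins were called higher and 2 lower, beside 71.9% and 4.44% over the genome, and both lower bins were in Cdh18. For cerebellum against olfactory bulb 36 were called higher and 7 lower, beside 35.3% and 7.69%, and the lower bins were in Cdh7, Cdh8 and Cdh18. With each library centred, the counts were 16 higher and 4 lower, 32 and 10, and 23 and 11, beside 8.81% and 9.9%, 25.7% and 24.3%, and 22.1% and 21.3% over the genome. Of the 56 bins, Cdh12, Cdh13 and Cdh18 held 12, 12 and 10, and neighbouring bins of a gene are not independent. Before centring, Cdh12 alone gave 12, 12 and 11 of the higher calls for the 3 tissue pairs. With 2 libraries a tissue the counts rest on each of them. Without olfactory bulb replicate 1 or 2 the calls against cortex came to 20 each in place of 39. The calls between cerebellum and olfactory bulb came to 25 and 23 without those libraries, and to 17 without cerebellum replicate 1, in place of 43. In these fits the single library left in a tissue is assumed to vary like those of the other tissues.

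Cdh4, a type I cadherin expressed in the retina and forebrain (chr2:179442431-179899373, plus strand, 457 kb), was the exception in olfactory bulb. Its 5mC was 0.663, 0.666 and 0.627 in the cortex libraries, 0.623 and 0.602 in the olfactory bulb libraries, and 0.720 and 0.701 in the cerebellum libraries. The olfactory bulb lay below both other tissues in every library. The difference of olfactory bulb from cortex was −0.0395 (SDs 0.0145, n = 2, and 0.0215, n = 3), and −0.0716 after centring. Among 2488 genes of at least 100 kb this difference ranked 89th from the lowest. The bin furthest from cortex, 308 kb from the gene start to its centre (chr2:179700001-179800000), read 0.655, 0.670 and 0.626 in cortex, 0.594 and 0.562 in the olfactory bulb, and 0.718 and 0.690 in cerebellum. The start bin of Cdh4 did not separate the same tissues, with 0.595 ± 0.0548 (SD, n = 3) in cortex and 0.591 ± 0.0228 (n = 2) in olfactory bulb. The gene minus the pooled mean of its flanks was 0.0263 ± 0.00374 in cortex and 0.0732 ± 0.00592 in cerebellum. In olfactory bulb, where both libraries gave a negative value, it was −0.0309 ± 0.00861. The sides were unlike, with 5′ flank bins at 0.678 to 0.712 in cortex, 0.687 to 0.733 in olfactory bulb and 0.701 to 0.745 in cerebellum. The 3′ flank bins read 0.497 to 0.638, 0.505 to 0.634 and 0.502 to 0.624. The sign of the pooled difference therefore does not place the gene above or below both sides.

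Cdh11, a type II cadherin also known from bone and mesenchyme (chr8:102632095-102785642, minus strand), had the lowest cortical level of the family and the widest spread between tissues. Its 5mC was 0.530, 0.527 and 0.502 in the cortex libraries, 0.673 and 0.652 in the olfactory bulb, and 0.743 and 0.733 in cerebellum. Olfactory bulb was higher than cortex by 0.143 and cerebellum by 0.218, differences that ranked 5th and 4th from the highest among the 2488 genes. After centring they were 0.111 and 0.162. The bin with the gene's start (chr8:102700001-102800000) carried the larger part, with 0.439, 0.438 and 0.417 in cortex, 0.651 and 0.602 in the olfactory bulb and 0.684 and 0.680 in cerebellum, with no overlap. In the bin at the 3′ end the levels were 0.607 ± 0.0183, 0.698 ± 0.00571 and 0.794 ± 0.0114. The gene minus its flanks was −0.211 ± 0.00824 in cortex and −0.0637 ± 0.00704 in cerebellum.

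Cdh10, a type II cadherin of neurons (chr15:18818947-19014236, plus strand), was low in cortex and olfactory bulb and high in cerebellum. Its libraries read 0.635, 0.618 and 0.625 in cortex, 0.668 and 0.679 in the olfactory bulb, and 0.804 and 0.779 in cerebellum. Cerebellum exceeded cortex by 0.166 (centred 0.109, rank 31) and olfactory bulb by 0.118 (centred 0.0938, rank 133). Olfactory bulb and cortex differed by 0.0476, and after centring their libraries overlapped. The bin with the widest gap, centred 131 kb from the start, held 0.600, 0.582 and 0.610 in cortex, 0.643 and 0.659 in the olfactory bulb and 0.830 and 0.806 in cerebellum. In the bin that holds the printed promoter with its 2 CpG sites, the levels were 0.553 ± 0.0118, 0.588 ± 0.00458 and 0.716 ± 0.0254. The gene body minus its flanks was −0.119 ± 0.0165 in cortex, −0.113 ± 0.00636 for olfactory bulb and −0.0293 ± 0.00732 in cerebellum, where medians over bins instead of means gave 0.00165.

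Cdh8 and Cdh7 were the members in which olfactory bulb had the highest 5mC. Cdh8, a type II cadherin with patterned expression in cortex and thalamus (chr8:99024471-99416471, minus strand), read 0.653, 0.649 and 0.654 in cortex, 0.723 and 0.727 in the olfactory bulb and 0.716 and 0.688 in cerebellum. Cerebellum minus olfactory bulb was −0.0227, about the SD of the cerebellum libraries (0.0199), and −0.0470 after centring. Cerebellum minus cortex was 0.0500, which turned to −0.00639 after centring, with overlap. The difference was not even along the gene. In the bin centred 66.5 kb from the start, cerebellum read 0.664 and 0.620, within the range of cortex (0.648, 0.627 and 0.647) in its mean and below olfactory bulb (0.731 and 0.720). In the bin at the 3′ end cerebellum reached 0.807 ± 0.0112, against 0.789 ± 0.000645 in the olfactory bulb and 0.715 ± 0.0124 in cortex.

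Cdh7, another type II cadherin, known from neural crest and brain nuclei (chr1:109982431-110140157, plus strand), read 0.706, 0.713 and 0.708 in cortex, 0.746 and 0.760 in the olfactory bulb and 0.732 and 0.716 in cerebellum. Cerebellum minus olfactory bulb was −0.0287 (centred −0.0531). Cerebellum minus cortex was 0.0153, which turned to −0.0411 after centring, the lowest such value in the family. Its 3′ bin had the order of most members, with 0.743 ± 0.00708 in cortex, 0.790 ± 0.00169 in the olfactory bulb and 0.798 ± 0.00560 in cerebellum. The start bin, of which 17.6% lies in the gene, was lowest in cerebellum at 0.640 ± 0.00676, against 0.654 ± 0.0109 in cortex and 0.692 ± 0.0125 in olfactory bulb. At the 3′ end Cdh7 and Cdh8 had the order of tissues seen in the means of 7 members. In the start bin of Cdh7 the cerebellum and cortex libraries overlapped, with 0.645 and 0.636 against 0.643, 0.665 and 0.654.

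Cdh6, Cdh9 and Cdh12, 3 type II members of chromosome 15, were ordered cortex, olfactory bulb, cerebellum, and kept that order after centring. Cdh6, a cadherin of developing kidney and brain (chr15:13028701-13173675, minus strand), had means of 0.639 ± 0.0154, 0.698 ± 0.000358 and 0.752 ± 0.00910. Cdh9, known from hippocampal synapses and retina (chr15:16728756-16857094, plus strand), had 0.682 ± 0.0131, 0.756 ± 0.00825 and 0.796 ± 0.0186. Cdh12 (chr15:20449265-21589533, plus strand), the longest member at 1140 kb, had 0.686 ± 0.0111, 0.749 ± 0.00189 and 0.800 ± 0.0132. Its cerebellum level ranked 85th from the highest of 2488 genes, and that of Cdh9 ranked 121st.

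Along Cdh12 the levels were nearly flat. Its 12 bins spanned 0.652 to 0.710 in cortex, 0.719 to 0.782 for olfactory bulb, and 0.772 to 0.816 for cerebellum, and the order of the tissues was the same in each of the 12. The protein-coding transcripts of Cdh12 start 661 and 662 kb inside the GENCODE gene span, whose outer start belongs to a non-coding processed transcript. The bin that holds those inner starts (chr15:21100001-21200000) read 0.672 ± 0.00795 in cortex, 0.723 ± 0.0225 in the olfactory bulb and 0.778 ± 0.0163 in cerebellum, a step of −0.0386 from the preceding bin in cerebellum that was reached by 43.9% of the 25609 neighbouring pairs of bins.

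Cdh18, a type II cadherin of the central nervous system (chr15:22549022-23474418, plus strand, 925 kb), differed along its length in cerebellum. As a mean over the gene, 5mC was 0.723, 0.717 and 0.702 in cortex, 0.746 and 0.746 in the olfactory bulb and 0.764 and 0.747 in cerebellum, and each of the 3 differences changed sign after centring, to −0.000341 for olfactory bulb minus cortex, −0.0148 for cerebellum minus cortex and −0.0144 for cerebellum minus olfactory bulb. The bins, however, were split. In the 5 bins at the 5′ side cerebellum lay between 0.818 and 0.840, above both other tissues, and in the 5 at the 3′ side between 0.625 and 0.732. The bin centred 401 kb from the start read 0.838 and 0.830 in cerebellum, and the next bin (chr15:23000001-23100000) read 0.637 and 0.614. This step, −0.209 in the means, was the largest between neighbouring bins in any member, and 2.79% of neighbouring pairs over the genome had a step as large in cerebellum.

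Across the same step of Cdh18, cortex read 0.697, 0.678 and 0.667 and then 0.679, 0.696 and 0.666, and olfactory bulb 0.734 and 0.704 and then 0.707 and 0.702. Neither tissue showed the drop. The lower bin holds the start of the protein-coding transcript Cdh18-203, at 487 kb from the gene's outer start and just after the printed Cdh18 sequence, while the outer start belongs to Cdh18-202. Further protein-coding starts lie at 624 and 625 kb, in the next bin, where cerebellum read 0.642 and 0.658 against 0.692 to 0.697 in cortex. These were the 2 bins of Cdh18 called lower in cerebellum than in cortex, and the calls fell to 1 lower bin without either cerebellum replicate or without cortex replicate 1.

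**Figure D2:**
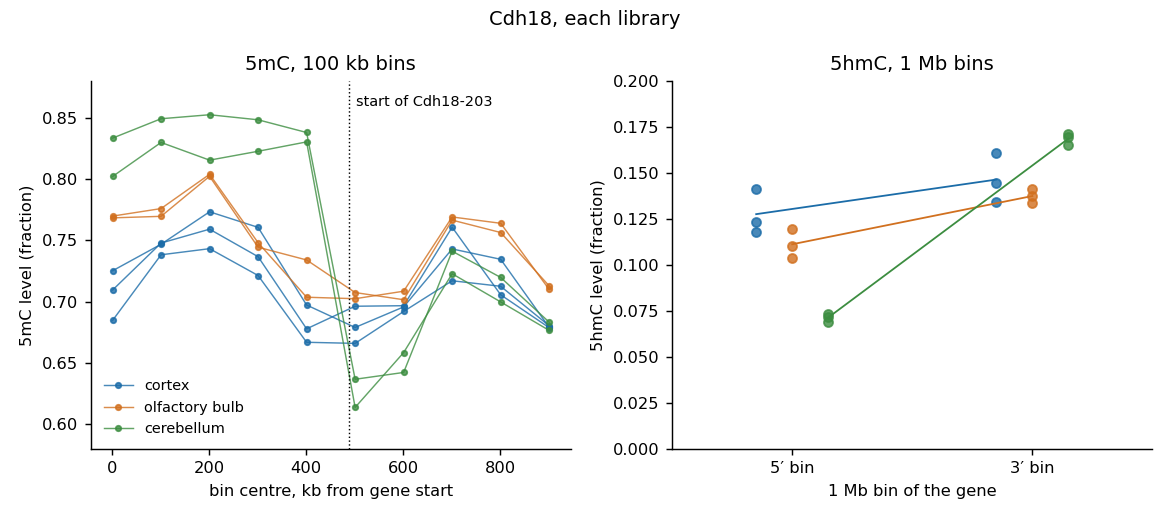
Cdh18 in each library. The left panel plots the 5mC level (fraction) of its 10 bins of 100 kb against the distance of the bin centre from the gene start in kb, with a dotted line at the start of Cdh18-203, and the right panel plots the 5hmC level (fraction) of its 2 bins of 1 Mb, with lines through the means. Cerebellum drops from 0.834 to 0.625 in 5mC and goes from 0.0714 to 0.169 in 5hmC, while the other tissues change less.

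Cdh13, the lipid-anchored cadherin and adiponectin receptor (chr8:118283733-119324921, plus strand, 1041 kb), had 5mC of 0.687 ± 0.0116 in cortex, 0.727 ± 0.00122 in the olfactory bulb and 0.767 ± 0.0156 in cerebellum. It was close to the median long gene, ranking 851, 895 and 1070 from the highest of 2488 for the 3 differences. It was the only member with a mean level above the pooled mean of its flanks in all 3 tissues, by 0.0240 ± 0.00124, 0.0422 ± 0.00178 and 0.0621 ± 0.00576. The sides were unlike, with 5′ flank bins at 0.670 to 0.738 in cortex, 0.708 to 0.773 in olfactory bulb and 0.711 to 0.781 in cerebellum. The 3′ flank bins read 0.583 to 0.654, 0.582 to 0.665 and 0.623 to 0.679. Over the mean of the tissues the lowest bin of Cdh13 lay at its 3′ end, with 0.666 ± 0.0227, 0.670 ± 0.0235 and 0.703 ± 0.0470, and 24.9% of this bin lies in the gene.

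In 8 of the 10 genes the bin with the gene's start had the lowest 5mC over the mean of the tissues. This held in 60.9% of 2487 protein-coding genes of at least 100 kb with more than 1 bin. The exceptions were Cdh13 and Cdh18, and Cdh6, Cdh9 and Cdh11 have only 2 bins each. Within a tissue the lowest bin could lie elsewhere, at 308 kb for Cdh4 in olfactory bulb (0.578 against 0.591 at the start). For Cdh12 in cortex it lay at 901 kb (0.652 against 0.665). The start bin of Cdh8, where the printed promoter has 20 CpG sites, read 0.560 ± 0.00820, 0.617 ± 0.0180 and 0.640 ± 0.0110 in cortex, olfactory bulb and cerebellum. From the 5′ to the 3′ side of the gene, split at its midpoint, the median difference over the members was 0.0584 in cortex, 0.0495 in the olfactory bulb and 0.0401 in cerebellum, against 0.0198, 0.0206 and 0.0188 over 567 genes of at least 300 kb. The 3′ side was higher in 9, 6 and 8 of the 10 members. These genes are not alike in length, since Cdh6, Cdh7, Cdh9, Cdh10 and Cdh11 are shorter than 300 kb. Over the 5 members of at least 300 kb, a subset taken after the values were seen, the medians were 0.00806, −0.00762 and 0.00368, each under that of the longer genes, with Cdh8 at 0.0737, 0.0865 and 0.124 and Cdh18 at −0.0234, −0.0321 and −0.153. Only 5 members had bins wholly inside the gene on both sides, and over these the medians were −0.00253, −0.0161 and −0.0178.

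Most members lay below the mean of their flanks, pooled over both sides. A gene below this mean need not lie below each side. In olfactory bulb, 3′ flank bins read as low as 0.609 for Cdh6 and 0.505 for Cdh4, under the genes at 0.698 and 0.612. 8 of the 10 lay below their pooled flanks in cortex, 9 in the olfactory bulb and 8 in cerebellum, with medians of −0.0525, −0.0352 and −0.0266, against −0.0150, −0.0123 and −0.00417 over the long genes. For Cdh7 and Cdh8 the gap below the pooled flanks was widest in cerebellum, at −0.0934 ± 0.00110 and −0.104 ± 0.00879. For Cdh6, Cdh9, Cdh10, Cdh11 and Cdh12 it was widest in cortex, at −0.0492, −0.0559, −0.119, −0.211 and −0.0705. Cdh18 had its widest gap in cerebellum, at −0.0627 ± 0.00362, against −0.0307 ± 0.00400 in cortex and −0.0257 ± 0.00269 in olfactory bulb.

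**Figure D3:**
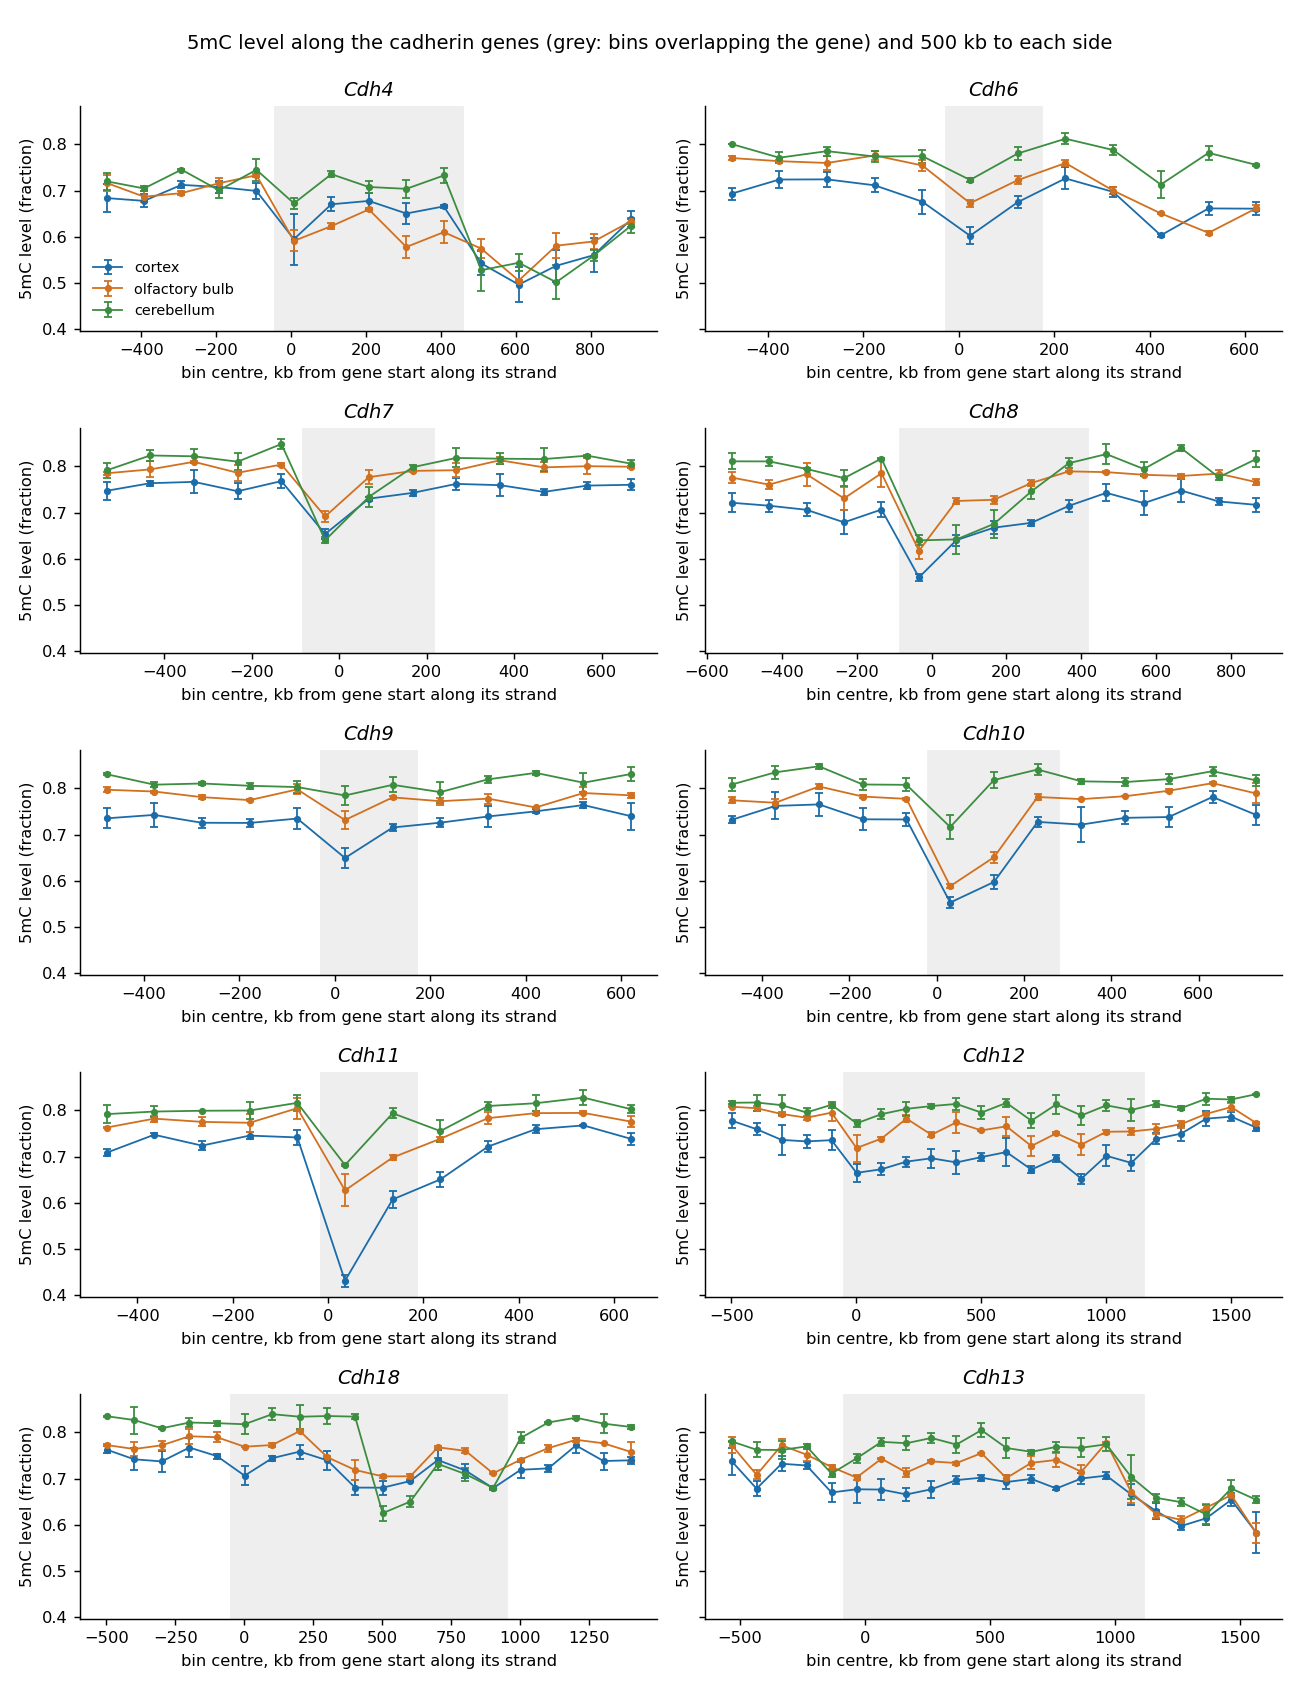
5mC level (fraction) in 100 kb bins along each cadherin gene and 500 kb to each side, against the distance of the bin centre from the gene start in kb along the gene's strand. Points are means over the libraries of a tissue (3 for cortex, 2 for each other tissue), bars are the SD, and grey marks the bins that overlap the gene. Cdh11 dips to 0.432 in cortex, Cdh12 stays flat, and Cdh18 falls within the gene in cerebellum.

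5hmC ran the other way in most members. It was highest in cortex and lowest in cerebellum in 8 of the 10 genes, highest in olfactory bulb in Cdh4, and lowest in olfactory bulb in Cdh8. The libraries did not overlap in 9 of the 10 genes between olfactory bulb and cortex, in 10 between cerebellum and cortex and in 9 between cerebellum and olfactory bulb. Over the 2489 long genes, 2.65% were higher and 62.8% lower without overlap in olfactory bulb than in cortex, 0.161% and 98% in cerebellum than in cortex, and 1.17% and 95% in cerebellum than in olfactory bulb. The gene filled from 1.42% (a bin of Cdh10) to 71.6% (a bin of Cdh13) of its 1 Mb bin, so these levels include the surroundings. The median difference over the members was −0.0277 for olfactory bulb minus cortex, −0.0795 for cerebellum minus cortex and −0.0559 for cerebellum minus olfactory bulb, against −0.0190, −0.0712 and −0.0510 over the long genes. The median 1 Mb bin of the genome differed by −0.0198, −0.0708 and −0.0498, or by −0.24, −0.97 and −0.72 on the log2(level/(1 − level)) scale. After centring, the medians over the members were −0.00482, 0.00204 and 0.00282, the last 2 reversed in sign, and 4, 5 and 5 members were higher. The share of long genes that was higher after centring is not given here, so these counts describe the members only.

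Limma over all 1 Mb bins called 1 member bin higher and 12 lower of 15 in olfactory bulb than in cortex, beside 3.25% and 67.7% of bins over the genome. It called 1 higher and 14 lower in cerebellum than in cortex, beside 0.426% and 97.6%, and 1 higher and 13 lower in cerebellum than in olfactory bulb, beside 1.2% and 91.8%. After centring these counts were 3 higher and 9 lower, 7 and 7, and 7 and 8, beside 36.2% and 33%, 50.3% and 40.1%, and 50.9% and 39.1% over the genome. The bin called higher in olfactory bulb was that of Cdh4, and the bin called higher in cerebellum was the 3′ bin of Cdh18.

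Cdh4 had the highest 5hmC of the family in olfactory bulb. Its libraries read 0.199, 0.207 and 0.187 in cortex, 0.233, 0.238 and 0.220 in the olfactory bulb, and 0.137, 0.133 and 0.138 in cerebellum. Olfactory bulb was higher than cortex by 0.0324 (centred 0.0552) in libraries that did not overlap, and this ranked 7th from the highest of 2489 long genes. In the same tissue pair Cdh4 was the member with lower 5mC. Its olfactory bulb level lay 0.0521 ± 0.00467 above the bins beside it. Cerebellum minus cortex was −0.0620, which turned to 0.0195 after centring.

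The 3′ bin of Cdh18 (chr15:23000001-24000000) was the reverse of the family in cerebellum. It read 0.144, 0.161 and 0.134 in cortex, 0.134, 0.141 and 0.137 in the olfactory bulb and 0.171, 0.169 and 0.165 in cerebellum. Cerebellum was above both other tissues in every library, by 0.0223 over cortex and 0.0312 over olfactory bulb, in 1 of 11 bins of 2581 called higher than in cortex. The 5′ bin of the gene (chr15:22000001-23000000) read 0.123, 0.141 and 0.118 in cortex, 0.104, 0.119 and 0.110 in the olfactory bulb, and 0.0719, 0.0692 and 0.0731 in cerebellum, below both. 5mC averaged over the same 1 Mb was 0.720 ± 0.00951 in cortex, 0.748 ± 0.00239 for olfactory bulb and 0.747 ± 0.00793 in cerebellum, so at this width both marks were higher in cerebellum than in cortex, although the 100 kb bin from 23000001 had lower 5mC in cerebellum. As a mean over both bins, cerebellum (0.120 ± 0.00131) was below cortex (0.137 ± 0.0128, difference −0.0170) and overlapped olfactory bulb (0.124 ± 0.00578), and after centring it was above both, by 0.0646 and 0.0544.

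**Figure D4:**
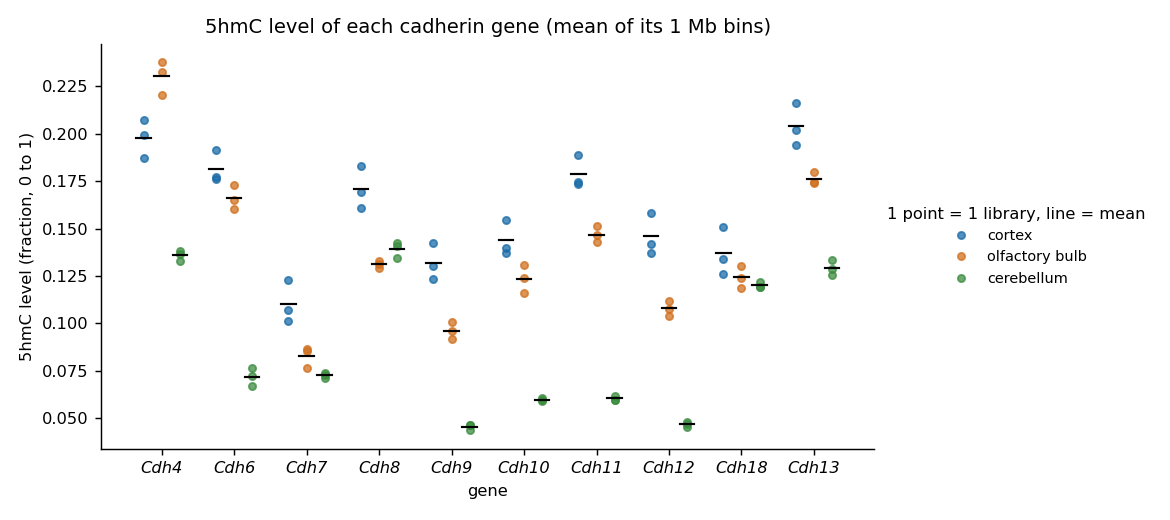
5hmC level (fraction) of each cadherin gene, as the mean of its 1 Mb bins, with 1 point per library (3 per tissue) and a line at the mean of the tissue. Cdh4 is highest in olfactory bulb (0.230), Cdh8 is higher in cerebellum than in olfactory bulb, and Cdh9 and Cdh12 are lowest in cerebellum (0.0454 and 0.0467). With each library centred on its genome median, cerebellum lies above cortex in Cdh4, Cdh7, Cdh8, Cdh13 and Cdh18.

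Cdh8 had more 5hmC in cerebellum than in olfactory bulb, with 0.141, 0.135 and 0.143 against 0.131, 0.133 and 0.129 (difference 0.00834, centred 0.0671), and 0.169, 0.183 and 0.161 in cortex. These libraries did not overlap, but limma did not call the bin. In cerebellum its bin lay 0.0548 ± 0.00509 above the bin beside it, against 0.0284 ± 0.00677 in cortex and 0.0102 ± 0.00401 in olfactory bulb. Cerebellum minus cortex was −0.0316, and 0.0500 after centring. Cdh7 had low levels throughout, 0.110 ± 0.0111, 0.0827 ± 0.00543 and 0.0725 ± 0.00141, which put cerebellum below the others as measured and above them after centring (by 0.0439 and 0.0485).

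The other type II genes had the largest differences between cortex and cerebellum as measured. Cdh11 went from 0.174, 0.189 and 0.175 in cortex through 0.143, 0.151 and 0.147 in olfactory bulb to 0.0597, 0.0595 and 0.0618 in cerebellum, and its difference of −0.119 from cortex (centred −0.0372) ranked 40th from the lowest of 2489 genes. Cdh6 had 0.182 ± 0.00870, 0.166 ± 0.00624 and 0.0717 ± 0.00482, and its olfactory bulb minus cortex was −0.0155, which turned to 0.00733 after centring. Its level minus that of the bin beside it was negative in each tissue, at −0.0350 ± 0.00522, −0.0403 ± 0.00125 and −0.0399 ± 0.00504. Cdh12 had 0.146 ± 0.0109, 0.108 ± 0.00398 and 0.0467 ± 0.00139. Cdh9 had 0.132 ± 0.00959, 0.0961 ± 0.00449 and 0.0454 ± 0.00164, and its cerebellum was below olfactory bulb as measured and above it by 0.00802 after centring. Cdh10 had 0.144 ± 0.00937, 0.124 ± 0.00742 and 0.0596 ± 0.000744, and its tissues overlapped after centring. These Cdh10 values weight its bins equally, although its 3′ bin has 1.42% of its length in the gene. With bins weighted by the bases of the gene, cerebellum minus olfactory bulb of Cdh10 was −0.0835 in place of −0.0639, before centring. Cdh13 had the highest cortical level, 0.204 ± 0.0112, with 0.176 ± 0.00322 and 0.129 ± 0.00396 in the others, and its cerebellum, below both as measured, lay above both after centring, by 0.00661 and 0.0116.

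As a share of 5mC plus 5hmC in the same 1 Mb bin, 5hmC made up 23.1% in cortex, 26.3% in the olfactory bulb and 16.3% in cerebellum for Cdh4. For Cdh11 it made up 20.8%, 16.3% and 7.1%. For the 3′ bin of Cdh18 it made up 16.9%, 15.5% and 18.4%, and for the 5′ bin 14.7%, 12.6% and 7.94%. The smallest shares in cerebellum were 5.31% in the bin of Cdh9, 5.51% and 5.46% in those of Cdh12 and 5.47% in the 3′ bin of Cdh10. The gene fills 12.8% of that bin for Cdh9, 55.1% and 59.0% for Cdh12 and 1.42% for Cdh10, so these shares include the surroundings. In the 5′ bin of Cdh10, of which the gene fills 18.1%, the share was 8.11%. These sums add levels from different libraries and mice.

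Over the 15 member bins of 1 Mb, the differences in 5mC and in 5hmC had opposite signs in 15 bins for olfactory bulb against cortex, and in 14 for each comparison with cerebellum. The 3′ bin of Cdh18 was the exception for cerebellum against cortex, with differences of 0.0266 in 5mC and 0.0223 in 5hmC. Pearson's r across these bins was −0.868, −0.781 and −0.766, beside −0.691, −0.723 and −0.777 over all 2581 bins, of which 2378, 2375 and 2125 had opposite signs. Bins of 1 gene and of 1 chromosome are not independent, and the assays share the tissue contrast, so r is a description only.

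**Figure D5:**
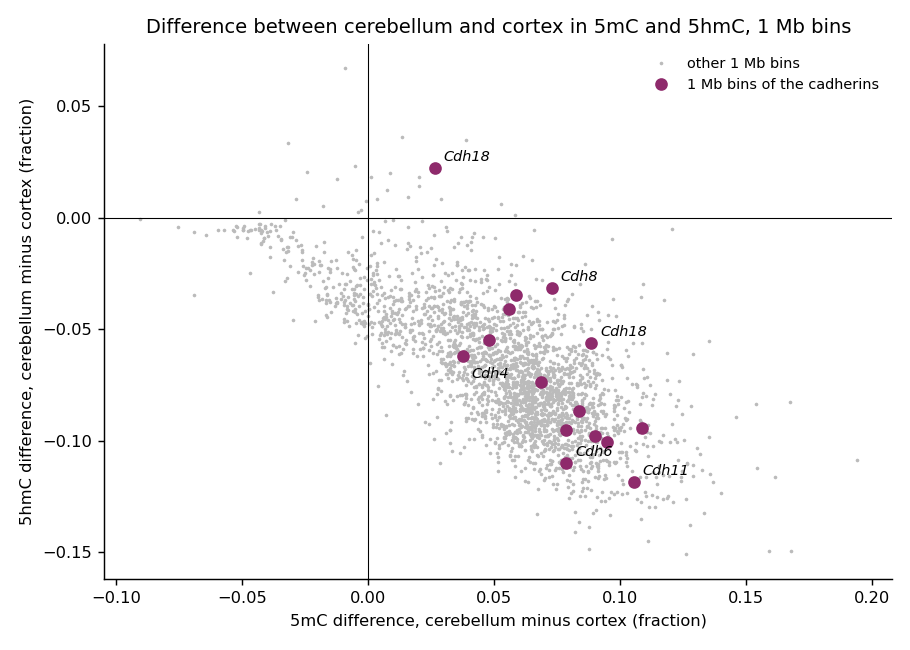
Difference between cerebellum and cortex in 5mC (horizontal axis, fraction) and 5hmC (vertical axis, fraction) for all 1 Mb bins (grey) and the 15 bins of the cadherins (purple), before centring. After centring, 7 of the 15 were called higher and 7 lower in 5hmC. The 3′ bin of Cdh18 lies above 0 on the vertical axis, and the bin of Cdh11 is the lowest of the cadherins at −0.119.

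Each member was also matched to the protein-coding gene of at least 3 bins whose 5mC was nearest over the 7 oxBS-seq libraries, by root mean square difference among 1565 or 1566 genes. The nearest to Cdh9 was Cdh12 itself (0.00711). For Cdh12 it was Kcnt2, a sodium-activated potassium channel (0.00602), for Cdh10 Kcnh7, a voltage-gated potassium channel (0.00987), and for Cdh4 Cacna1d, an L-type calcium channel subunit (0.00846). For Cdh7 it was Galnt13 (0.00703), for Cdh8 Gsg1l (0.00996), for Cdh13 Palld (0.00465), for Cdh18 Itgb6 (0.00560) and for Cdh6 Gm42906 (0.00602). Cdh11 had no close match, its nearest gene Phactr1 being at 0.0225.

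The rest of the cadherin system was counted in the same fits. The 13 other cadherins had 24 bins of 100 kb, of which 3 were called higher and 2 lower in olfactory bulb than in cortex, 14 and 3 in cerebellum than in cortex, and 9 and 2 in cerebellum than in olfactory bulb. Over the genome 37.6% and 2.18%, 71.9% and 4.44%, and 35.3% and 7.69% were called. With centring these cadherins had 0 and 6, 5 and 10, and 6 and 8, beside 8.81% and 9.9%, 25.7% and 24.3%, and 22.1% and 21.3% over the genome. Their median differences, 0.0252, 0.0441 and 0.0157, were each under the genome median of the same pair, with Cdh22 the lowest in olfactory bulb against cortex (−0.0508), and Cdh20, another type II gene, the highest in cerebellum against cortex (0.120). Of their 11 bins of 5hmC, 1, 0 and 0 were called higher and 5, 10 and 10 lower, beside 67.7%, 97.6% and 91.8% lower over the genome. After centring 7, 9 and 8 were called higher and 3, 2 and 3 lower. The centred genome shares were 36.2% and 33%, 50.3% and 40.1%, and 50.9% and 39.1%. In 5hmC Cdh22 was the highest of these cadherins in olfactory bulb against cortex (0.0192). The 8 genes of the catenin list encode proteins that bind cadherin tails (Ctnnb1, Jup, Ctnnd1), alpha-catenins, which join beta-catenin to actin, and their relatives. They had 45 bins, 39 of them in Ctnna2, Ctnna3 and Ctnnd2, of which 30, 41 and 34 were called higher and 0, 1 and 1 lower, beside the shares of 37.6%, 71.9% and 35.3% higher and 2.18%, 4.44% and 7.69% lower. With centring the counts were 13 and 3, 33 and 4, and 21 and 2, beside 8.81% and 9.9%, 25.7% and 24.3%, and 22.1% and 21.3% over the genome. The genes had median differences of 0.0443, 0.0906 and 0.0409. Their 12 bins of 5hmC were called lower in 8, 12 and 12 and higher in 0, beside the shares of 67.7%, 97.6% and 91.8% lower. After centring 5, 8 and 10 were called higher and 5, 3 and 0 lower, beside 36.2% and 33%, 50.3% and 40.1%, and 50.9% and 39.1% over the genome. The largest catenin difference between cerebellum and cortex in 5mC was that of Ctnna2, the neuronal alpha-catenin (0.147).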

How the data were processed

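The authors mapped oxBS-seq and TAB-seq reads to mm10 with Bismark, named in the submitters' processing notes, and deposited a fraction from 0 to 1 for every bin of each library, with no coverage. How the reads of a bin were combined is not given in the sources used here. Tables of 16 libraries were used. Bins listed at 0 or 1 in any library were left out, which kept 25664 of 26327 bins of 100 kb and 2581 of 2641 bins of 1 Mb. A gene's level was the unweighted mean of its bins (GENCODE vM21). limma 3.58.1 in R 4.3.3 was run on log2(level/(1 − level)) over all bins, with 1 fit of the 3 tissues for each assay and Benjamini-Hochberg adjusted p-values. It was also run on simulated data with independent bins and no shift common to a library. That run could not test how linked bins or library-wide shifts affect the calls. The standard error from limma was nearly the same in all bins, so a call does not reflect the spread of its own bin. The paper calls the replicates technical in its methods and biological in its results, with independent mice in both. The p-values measure the spread between these libraries.

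The members and gene lists were chosen with earlier results of these data known. All 10 members were named with their bins of lowest and highest 5mC and, for each tissue pair, the 3 called bins with the largest difference each way; other bins and genes were chosen after their values were seen. Batches are not given in the labels. Deviations of same-numbered libraries from their tissue means correlated by 0.126, 0.344 and 0.250 across 5hmC bins between olfactory bulb and cortex. In the other 5hmC pairs they correlated by −0.229 to 0.0743, and in 5mC by −0.0906 to 0.0158. Differently numbered 5hmC libraries reached 0.299 (cerebellum replicate 2 with olfactory bulb replicate 3) and 0.242 (cerebellum replicate 2 with cortex replicate 3). The labels state no pairing, and these values do not settle whether there was one.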

Additional observations from a re-analysis of the deposited data

Results flagged for a closer look

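In these results every library of a tissue went 1 way and every library of another tissue the opposite way, and the difference between the tissues was not tested. For Cdh4, 5mC of the gene minus the pooled mean of its flanks was −0.0309 in olfactory bulb, against 0.0263 in cortex and 0.0732 in cerebellum. Its 5′ flank bins were more methylated than its 3′ flank bins in each tissue. For Cdh4, 5mC of the 3′ side minus that of the 5′ side was 0.0130 in cerebellum and −0.0305 in olfactory bulb. With bins wholly inside the gene the cerebellum value was −0.0179, of the same sign as olfactory bulb. For Cdh13 the same measure was 0.00806 in cortex, against −0.00762 in olfactory bulb and −0.0216 in cerebellum. With 2 or 3 libraries a tissue, values near 0 can take the same sign in every library by chance.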

How the results depend on the processing

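The tables give no coverage of the bins, so the only error at hand is the SD between libraries, and olfactory bulb and cerebellum have 2 libraries of 5mC each. Centring each library on its median changed the most results. In 5mC it turned Cdh18 to −0.000341, −0.0148 and −0.0144 for olfactory bulb minus cortex, cerebellum minus cortex and cerebellum minus olfactory bulb, and turned Cdh7 to −0.0411 and Cdh8 to −0.00639 for cerebellum minus cortex. It moved the medians over the members to 0.0213, 0.0403 and 0.0209, and the member bins called between olfactory bulb and cortex from 39 to 20. In 5hmC it turned Cdh6 to 0.00733 and Cdh10 to 0.00262 for olfactory bulb minus cortex, Cdh4 to 0.0195, Cdh7 to 0.0439, Cdh8 to 0.0500, Cdh13 to 0.00661 and Cdh18 to 0.0646 for cerebellum minus cortex, and Cdh7 to 0.0485, Cdh9 to 0.00802 and Cdh13 to 0.0116 for cerebellum minus olfactory bulb, and gave medians of −0.00482, 0.00204 and 0.00282. By construction centring subtracts the genome-wide difference between tissues. With bins weighted by the bases of the gene, Cdh10 moved to −0.0835 in 5hmC for cerebellum minus olfactory bulb. In 5mC it moved to 0.189 for cerebellum minus cortex and 0.143 for cerebellum minus olfactory bulb. With 5mC averaged into 1 Mb bins there were 15 bins, of which 13, 15 and 11 were called. With bins wholly inside the gene, which leaves fewer genes, the median for cerebellum minus cortex was 0.0495 over 7 genes, the gene minus its flanks gave −0.0276, −0.0242 and −0.0135 in cortex, olfactory bulb and cerebellum, the 3′ minus the 5′ side gave −0.00253, −0.0161 and −0.0178 over 5 genes, and Cdh4 in cerebellum gave −0.0179. Over the 5 members of at least 300 kb, a setting chosen after seeing the data, the 3′ minus the 5′ side gave 0.00806, −0.00762 and 0.00368. With medians over bins, the gene minus flanks was −0.0419 in olfactory bulb and −0.0215 in cerebellum (Cdh10 0.00165), and the 3′ minus the 5′ side was 0.0533 in cortex. With flanks of 1 Mb it was −0.0326 in olfactory bulb. Leaving out each library gave 20 to 39, 45 to 48 and 17 to 37 called 5mC bins, 11 to 14, 15 to 15 and 13 to 14 called 5hmC bins, 5mC medians of 0.0487 to 0.0582, 0.0850 to 0.105 and 0.0349 to 0.0564, and 5hmC medians of −0.0325 to −0.0215, −0.0837 to −0.0738 and −0.0580 to −0.0537. For gene minus flanks the ranges were −0.0569 to −0.0507, −0.0379 to −0.0350 and −0.0295 to −0.0248, and for the 3′ minus the 5′ side 0.0559 to 0.0590, 0.0405 to 0.0407 and 0.0381 to 0.0422. A replicate block by the numbers of the labels gave 39, 47 and 46 called 5mC bins in place of 39, 48 and 43, and 13, 15 and 14 of 5hmC, as without it. A block by the numbers in the library names gave 43, 47 and 38, and 13, 15 and 14. The cause of these changes was not tested beyond what the constructions show.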
